A study of Canis lupus familiaris with 15 samples.

Results

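SELE, VCAM1 and CCL21, genes of vessels and lymphoid stroma, were followed across 15 arrays of canine lymphoma and skin. They were chosen by name, and their probes were found through the RefSeq identifiers printed on the array. This gave 3 genes with 4 probes, SELE having 2, out of 1357 gene symbols and 43603 probes in all. Levels are log2 processed spot signals from which the 75th percentile of that array's own log2 signals was subtracted, so a level of 0 equals that percentile, and levels of different probes are not compared with each other.

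SELE encodes E-selectin, an adhesion molecule that activated vessel lining cells (endothelium) display and on which circulating leukocytes roll. VCAM1 encodes a vascular adhesion molecule that binds integrins on lymphocytes and is made by activated endothelium and by stromal and follicular dendritic cells of lymphoid tissue. CCL21 encodes a chemokine that draws cells carrying the receptor CCR7 into lymphoid tissue, and it is made by lymph node stroma, lymphatic vessels and, in mice, the high endothelial venules through which lymphocytes enter.

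The series bears on how response to treatment in recurrent canine lymphoma relates to activity of the anaphase-promoting complex. Each of 15 samples from 5 dogs had its Cy3-labelled RNA read on an Agilent array of its own. Skin biopsies of MalcolmX and Rosco were the control tissue. The tumour biopsies were the original drug-resistant lymphomas of MalcolmX, Jake, Rosco and Dog Y and the drug-sensitive lymphoma of Thai. A fine needle aspirate draws loose cells and fluid through a thin needle, whereas a biopsy removes a piece of tissue. MalcolmX gave 1 aspirate of the resistant tumour after metformin, an antidiabetic drug. The other 6 aspirates were of Rosco: 1 after failed chemotherapy and before metformin, 1 in remission after metformin, 3 in relapse after metformin, and 1 of a second original resistant tumour. The last sample of Rosco was taken from a tumour after death, and the labels do not say by which method. The labels name lymphoma but no anatomical site, so a lymph node origin is not given. For the first Rosco biopsy and that of Dog Y the labels give both drug resistance and sampling before treatment. The 3 relapse samples are titled as without remission and described as relapse. With 6 of 7 aspirates from Rosco, dog and sampling method are largely confounded. In bulk RNA, fewer cells of a type and less RNA per cell cannot be told apart.

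The 75th percentile of the processed signal lay between 367 and 1241, and each array had 66.8% to 75.9% of its probes well above background. Keratinocyte markers matched the skin labels, with a summed linear level of 205 to 1307 in skin and 2.42 to 53.3 in the 12 tumour biopsies and aspirates. The first Rosco biopsy and the second resistant Rosco aspirate stood apart. Their levels of CA6, a carbonic anhydrase secreted by salivary glands, were 8.59 and 8.99, and the B cell marker MS4A1 was not well above background. MS4A1 lay between 0.38 and 3.53 on the other 10 of those arrays, lowest on the failed-chemotherapy and remission aspirates, where the T cell gene CD8A was at 3.21 and 2.89. Results that rest on the 2 gland-rich arrays are also given without them where other arrays remain.

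SELE, by its brighter probe, spread over 5.10 log2 units among the tumour biopsies alone. In the tumour biopsies SELE was at 0.22 in MalcolmX, -1.82 in Jake, -3.97 in Rosco, -4.89 in Dog Y and -3.40 in Thai. The aspirates ran from -5.56 in remission through a median of -4.25 to -2.64 in MalcolmX. Both MalcolmX and Jake biopsies were above every aspirate, while the other 3 biopsies fell inside the range of the aspirates. Skin was at -1.13 in MalcolmX and -2.73 in Rosco, and the post-mortem sample was at -1.03, the second highest of the 15 arrays. By mean level the classes ran from skin (-1.93 ± 1.13 SD, n = 2) through tumour biopsies (-2.77 ± 2.01 SD, n = 5) to aspirates (-3.98 ± 1.15 SD, n = 7). Neighbouring classes overlapped in this order.

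The 2 SELE probes gave different patterns, which limits every SELE value here. The brighter probe, used above, ran over 5.78 log2 units and was well above background on all 15 arrays. The dimmer probe stayed between -6.73 and -4.31 and was well above background on 14 arrays, the exception being the Rosco skin. Across the 15 arrays the probes had Pearson's r of 0.18 and Spearman's rho of 0.21, as a description with no test. In the MalcolmX biopsy, where the brighter probe was highest, the dimmer probe was at -5.34. The post-mortem sample was the highest array for the dimmer probe and the second highest for the brighter one. Which of the probes tracks the canine SELE transcript was not tested.

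**Figure D1:**
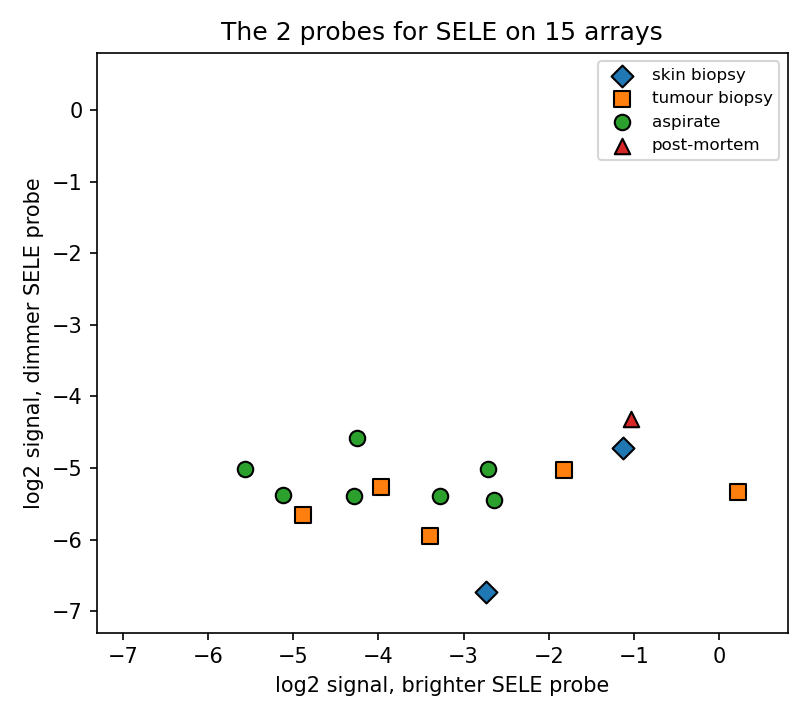
Log2 signal relative to the array's 75th percentile for the brighter (x axis) and the dimmer (y axis) SELE probe, with 1 point per array and the symbol giving the kind of sample. The brighter probe spreads over 5.78 log2 units, while the dimmer one stays between -6.73 and -4.31.

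VCAM1 was the member for which tumour biopsies and skin did not overlap. Its level in the tumour biopsies was 1.86 in MalcolmX, 1.30 in Jake, -0.51 in Rosco, -0.90 in Dog Y and -0.34 in Thai. The aspirates ran from -1.69 in the second resistant sample through a median of -0.53 to -0.21 in MalcolmX. The same MalcolmX and Jake biopsies were above every aspirate, and the other 3 lay among them. Skin held the low end, at -1.35 in MalcolmX and -1.96 in Rosco, the lowest of all arrays. The post-mortem sample was at 1.32, second to the MalcolmX biopsy. By mean the order was tumour biopsies (0.28 ± 1.22 SD, n = 5), aspirates (-0.76 ± 0.55 SD, n = 7) and skin (-1.66 ± 0.43 SD, n = 2). Biopsies overlapped with aspirates, and aspirates with skin. Biopsies were higher than skin with no overlap, as they were for 15.8% of 23907 targets.

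CCL21 gave another order. Tumour biopsies were at -0.23 in MalcolmX, 0.10 in Jake, -2.72 in Rosco, -1.46 in Dog Y and -1.76 in Thai. The aspirates spanned a wider range, from -3.95 in MalcolmX through a median of -0.31 to 0.77 in the second relapse sample. No biopsy was above all aspirates, and the lowest and second highest of the 15 arrays were both aspirates. Skin was at -1.22 in MalcolmX and 0.21 in Rosco. The post-mortem sample had the highest level, 2.06. Class means were -0.50 ± 1.01 SD for skin (n = 2), -1.10 ± 1.69 SD for aspirates (n = 7) and -1.22 ± 1.15 SD for tumour biopsies (n = 5), and all 3 classes overlapped.

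**Figure D2:**
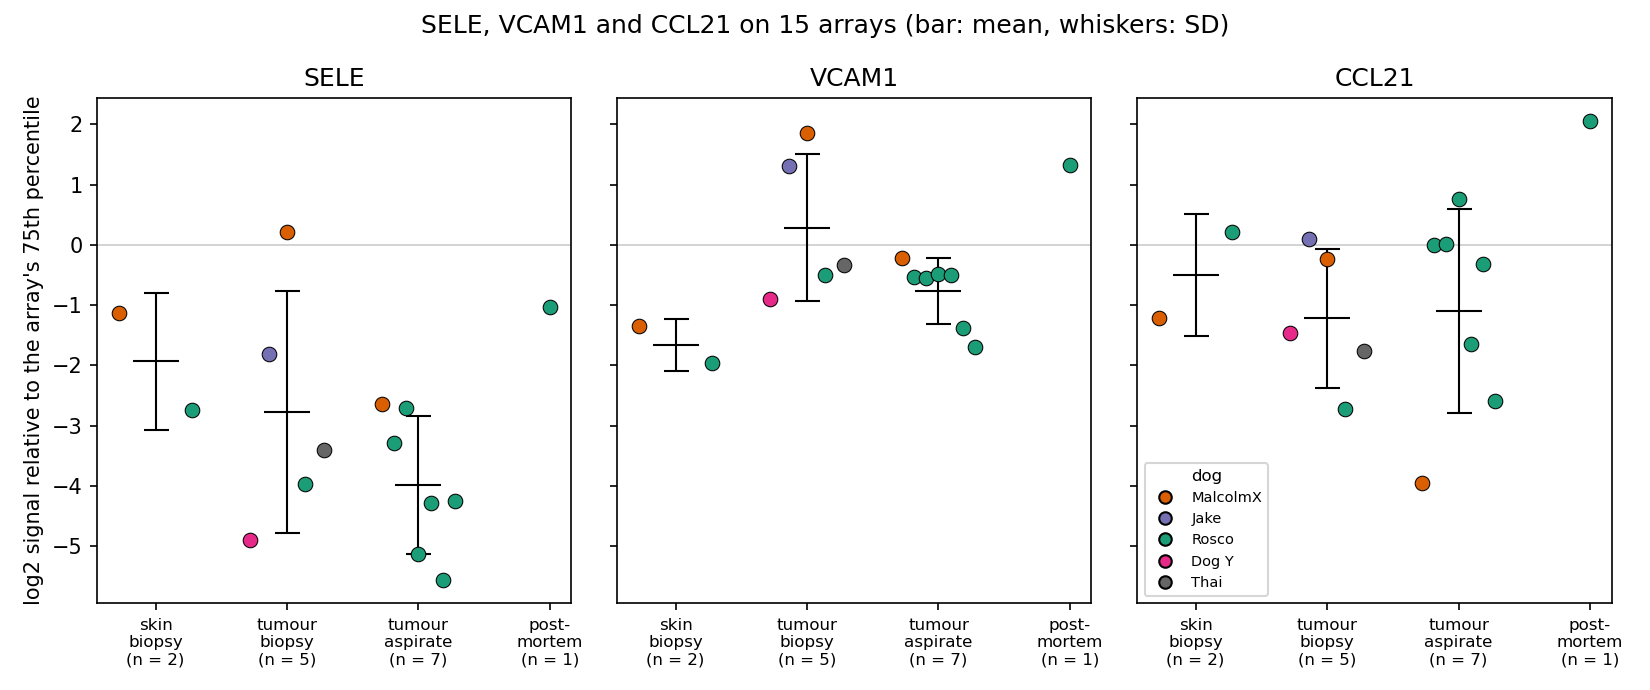
Log2 signal relative to the array's 75th percentile for each gene on each array, by kind of sample, with the dog as colour; horizontal bars are class means and whiskers are SD. The MalcolmX and Jake biopsies are above all aspirates for SELE and VCAM1, and the post-mortem sample is among the 2 highest arrays for every gene.

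Biopsies were set against aspirates to ask whether tissue pieces carry more vessel and stroma signal than needle aspirates. None of the 3 genes differed beyond the spread between arrays. SELE was 1.07 higher on the log2 scale in tumour biopsies (SE 0.828, 95% interval -0.73 to 2.86, 2.09-fold, limma adjusted p = 0.801). For VCAM1 the difference was 0.97 (SE 0.486, interval -0.09 to 2.02, 1.95-fold, limma adjusted p = 0.660). CCL21 gave -0.03 (SE 0.847, interval -1.86 to 1.80, limma adjusted p = 0.997). These intervals still allow several-fold differences in each gene. No target was called out of 22390 tested (percent called 0), although 1742 had an unadjusted p under 0.05. Groups failed to overlap, with biopsies higher, for 0.067% of targets, and none of the 3 genes was among them. The fit held dog as a random block, with an estimated correlation of 0.125 between arrays of 1 dog.

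An exact two-sided permutation test over the 792 ways to split the 12 arrays gave p = 0.215 for SELE, 0.0783 for VCAM1 and 0.890 for CCL21. The smallest p this design allows is that of a single split among the 792, the test ignores the shared dog, and the 3 raw values are one family. The MalcolmX biopsy carried much of the SELE and VCAM1 differences. Without it they were 0.35 and 0.58. SELE was also at 0.35 with a model-based background correction and at 0.42 with its 2 probes averaged. By the dimmer SELE probe alone the mean level was -5.45 in tumour biopsies and -5.17 in aspirates, the other way. Without the 2 gland-rich arrays the differences were 1.42 for SELE, 1.12 for VCAM1 and 0.71 for CCL21.

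Scan day moved with sampling method, since the first day held 4 of the 5 tumour biopsies and 1 aspirate, and the second held 1 biopsy and 6 aspirates. SELE differed by 0.02 within the first day and 0.81 within the second. VCAM1 differed by 0.65 and 0.52. CCL21 differed by 2.87 and -1.14, in opposite directions. With scan day as a block the 3 differences were 0.53, 0.63 and 0.91, with a limma adjusted p of 1 for each gene. Among these arrays slide 2 held only the MalcolmX pair, described below. Within slide 4 the values were -0.40, 0.20 and -1.76.

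**Figure D3:**
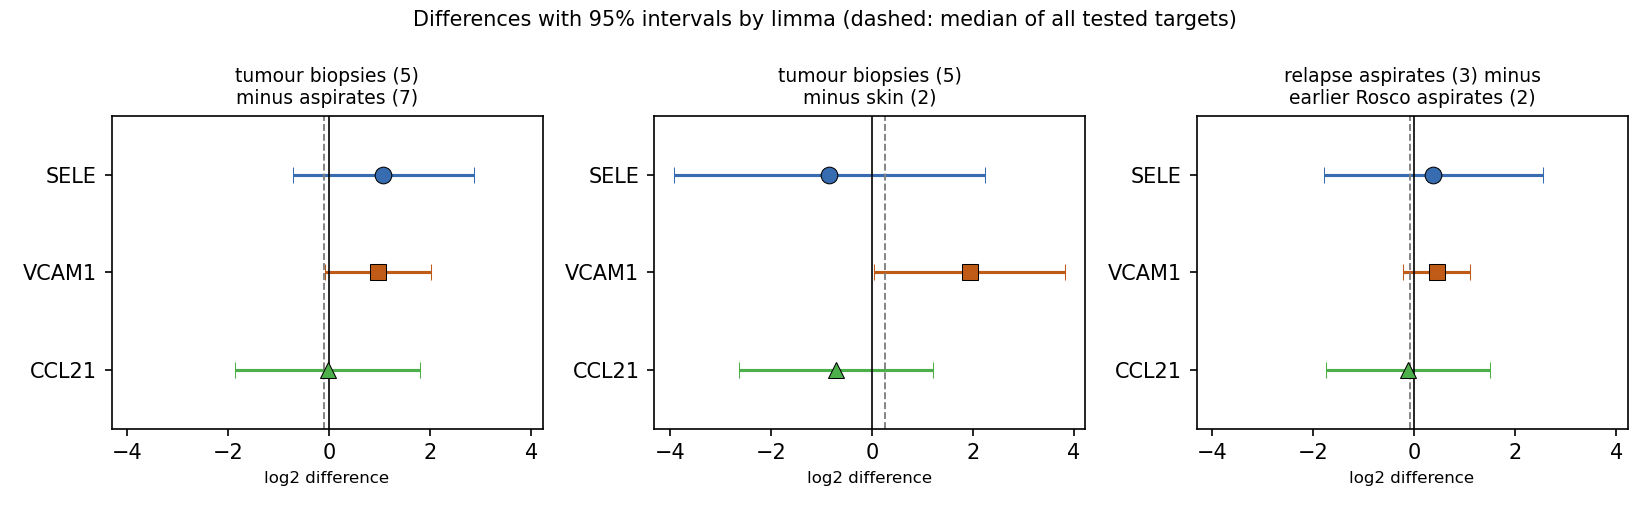
Log2 differences of the 3 genes in the 3 replicated comparisons, with 95% intervals by limma and the median of all tested targets as a dashed line. The interval for VCAM1 between tumour biopsies and skin lies just above 0, and the other 8 include 0.

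Related genes showed no common direction between biopsies and aspirates. Of 12 endothelial genes with a symbol, SELE and VCAM1 included, 11 were tested, 5 were higher in biopsies and 6 lower, with 0 called and a median of -0.19 against -0.10 over all targets. The members of that list farthest from 0, beside SELE and VCAM1, were ANGPT2, which encodes a ligand that destabilises vessels (1.25), and KDR, which encodes a receptor for vascular endothelial growth factor (1.04). For lymphoid stroma and follicular dendritic cells, a list that includes VCAM1 and CCL21, 3 of 6 tested genes were higher and 3 lower, with 0 called and a median of 0.29. CLU, a secreted chaperone abundant in follicular dendritic cells, differed by 0.74. CXCL12, a stromal chemokine, differed by 0.61, and IL7, a stromal survival factor for lymphocytes, by -0.40. Related ligands and receptors had 1 of 5 higher and 4 lower, with 0 called and a median of -0.17. The largest difference among them was -1.67, for the chemokine receptor CXCR3. Of 8 inducers of the adhesion molecules, only NFKB1, TNF and LTB could be tested, and all were on the lower side with 0 called and a median of -0.39. All 7 macrophage genes were on the higher side, with 0 called and a median of 0.29. Summed linear levels of the endothelial list overlapped, at 26.1 to 47.1 in tumour biopsies and 26.7 to 41.2 in aspirates. Fibroblast and matrix genes summed to 50.3 to 345 in biopsies and 33.8 to 232 in aspirates. The part of these cells in the member values was not tested.

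In the pair from MalcolmX all 3 genes were higher in the biopsy, though it sets 1 array against 1 array with no replicate check and has the aspirate taken after metformin. SELE was at 0.22 in the biopsy and -2.64 in the aspirate, a difference of 2.85 or 7.23-fold. VCAM1 was at 1.86 and -0.21, which is 4.19-fold. CCL21 was at -0.23 and -3.95, which is 13.1-fold. All 3 were at least 2-fold higher in the biopsy, as were 7.6% of the 23183 targets well above background on both arrays. The dimmer SELE probe differed by 0.11 in the same pair. Both arrays shared a slide and a scan day. Sampling method and metformin cannot be told apart here.

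Other vessel and stroma genes were higher in the same MalcolmX biopsy, and those named next were picked after their values were seen. Of 12 endothelial genes, 6 were at least 2-fold higher and 0 lower, namely SELE, VCAM1, KDR, ANGPT2, the platelet-store selectin SELP (1.92) and the endothelin receptor EDNRB (2.02). The general endothelial genes VWF and CD34 differed by 0.58 and 0.43. In the lymphoid stroma list 5 of 7 genes were at least 2-fold higher, the members VCAM1 and CCL21 being counted among them. CCL19, the other CCR7 ligand, was at 2.61 and CXCL12 at 1.78. PDPN, the podoplanin gene of lymphatic vessels and stromal cells, was lower in the biopsy by 1.56, so the 2 genes of the lymphatic vessel list with a symbol, CCL21 and PDPN, went opposite ways. Of 11 fibroblast and matrix genes 4 were at least 2-fold higher, and DCN, a collagen-binding proteoglycan, was lower. MS4A1 was at 3.18 in the biopsy and 3.21 in the aspirate. Genes of other cell types were at least 2-fold higher in the biopsy too, 3 of 4 for neutrophils, 3 of 6 for T and NK cells and 3 of 7 for macrophages. Of 3 fat cell genes 2 were at least 2-fold lower, with a list median of -1.17 against 0.001 over all targets. The share of all targets at least 2-fold lower in this pair is not given here. The part of these cells in the member values was not tested.

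The Rosco samples did not show this contrast for SELE or CCL21, whereas VCAM1 was 2.27-fold higher in the biopsy of the gland-rich pair. In the gland-rich pair SELE was at -3.97 in the biopsy and -4.25 in the aspirate. The dimmer SELE probe went the other way, by -0.69 in this pair and -0.14 against the mean of the Rosco aspirates. VCAM1 was at -0.51 and -1.69, a difference of 1.18 (0.65 to 1.39 under 3 alternatives). In this pair 0.552% of 23933 targets were at least 2-fold higher in the biopsy. CCL21 was at -2.72 and -2.59. Against the mean of all 6 Rosco aspirates the biopsy differed by 0.23 for SELE, 0.35 for VCAM1 and -2.10 for CCL21, and the biopsy was below every Rosco aspirate for CCL21, as it was for 29.8% of 21464 targets. The biopsy effect in MalcolmX minus that in Rosco was 5.81 for CCL21 (SE 1.89, limma adjusted p = 0.884), 2.62 for SELE and 1.72 for VCAM1 (limma adjusted p = 0.884 for both). None passed the threshold, and 0 of 23167 targets did, with 1 biopsy in each dog. For CCL21 the unadjusted p from that limma fit was 0.0173. Rosco had no biopsy other than the gland-rich one, which was set against 5 aspirates that were not gland-rich and 1 that was. With the gland-rich aspirate alone on the Rosco side, the same difference between dogs was 3.85 for CCL21, 2.57 for SELE and 0.88 for VCAM1, with no test.

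**Figure D4:**
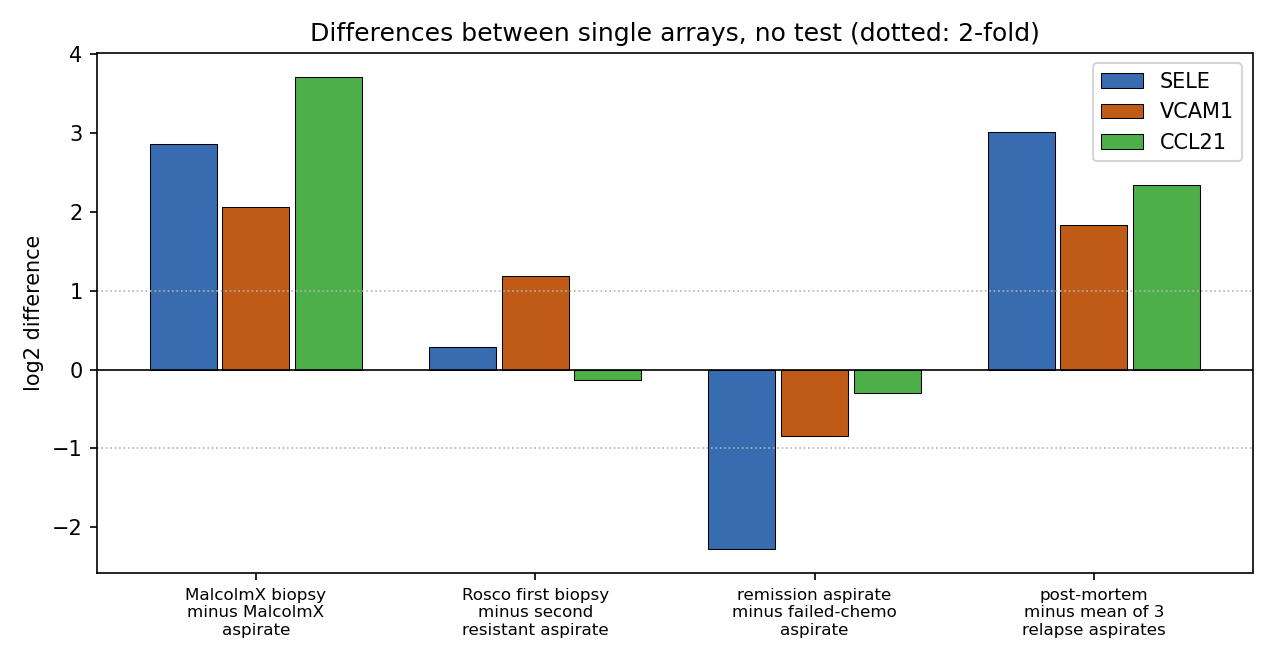
Log2 differences between single arrays, or between the post-mortem array and the mean of 3 relapse arrays, for SELE, VCAM1 and CCL21; dotted lines mark 2-fold and no test applies. All 3 genes are more than 2-fold higher in the MalcolmX biopsy than in the MalcolmX aspirate and in the post-mortem sample than in the relapse mean.

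Tumour biopsies were next set against skin, the control tissue. VCAM1 was above both skin arrays in 5 of 5 tumour biopsies, with a difference of 1.94 (SE 0.808, 95% interval 0.05 to 3.84, 3.84-fold). It did not pass adjustment over all targets (limma adjusted p = 0.247), and 15.8% of targets were likewise higher with no overlap. SELE differed by -0.84 (SE 1.32, limma adjusted p = 0.701) and CCL21 by -0.71 (SE 0.822, limma adjusted p = 0.596). In all, 231 of 23907 targets were called (0.966%), 18 higher and 213 lower, and the median of all targets was 0.26. Without the first Rosco biopsy 5617 targets were called, and VCAM1 then gave 2.14 with a limma adjusted p of 0.0975. VCAM1 differed by 2.10 within the first scan day, which held both skin arrays. For SELE the value was -1.64 without the Rosco skin, -0.04 without the MalcolmX skin, -2.43 within slide 1 and 2.95 within slide 2. Slide 2 set only the MalcolmX biopsy against the Rosco skin, single arrays of different dogs. The main fit held no dog term, though MalcolmX and Rosco gave both a biopsy and a skin array. Of the 12 endothelial genes 5 were higher and 7 lower than in skin, with 0 called. CCL19 differed by 3.42 and PDPN, named after its value was seen, by -3.85, neither of them called (limma adjusted p = 0.180 and 0.174). Fibroblast and matrix genes summed to 349.5 and 647 in the skin arrays.

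The sensitive biopsy of Thai lay inside the range of the 4 resistant biopsies for each gene, but for CCL21 only because of the gland-rich Rosco biopsy. It was below their mean by 0.78 for SELE, 0.77 for VCAM1 and 0.68 for CCL21, less than the SD of the resistant biopsies (2.28, 1.35 and 1.28). Against the 3 other resistant biopsies the sensitive one differed by -1.23, -1.09 and -1.23, and its CCL21 level of -1.76 was below all 3, which ran from -1.46 to 0.10. With 1 sensitive tumour there is no replicate check.

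Within Rosco, the aspirates followed treatment in 1 dog, so the spread is that of samples of this dog. SELE was at -3.28 after failed chemotherapy, -5.56 in remission, and -2.71, -5.12 and -4.29 in the 3 relapse samples. VCAM1 was at -0.53, -1.37, -0.55, -0.48 and -0.49 in the same order. CCL21 was at -0.01, -0.31, 0.01, 0.77 and -1.64. VCAM1 was close to constant across the 3 relapse samples, whereas SELE and CCL21 each spread over 2.4 log2 units. Of these samples, those on slide 4 had higher SELE (-3.28 and -2.71) than those on slide 3 (-5.56, -5.12 and -4.29).

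Relapse against the 2 earlier aspirates gave 0.38 for SELE (SE 0.892, limma adjusted p = 0.779), 0.44 for VCAM1 (SE 0.274, limma adjusted p = 0.268) and -0.13 for CCL21 (SE 0.668, limma adjusted p = 0.906). The 3 genes were thus among those not called in a comparison that called 8551 of 25366 targets (33.7%), 17.4% higher and 16.3% lower. SELE was lowest in remission (-5.56), with the second relapse sample close to it (-5.12). The remission level was 4.86-fold under the failed-chemotherapy sample, where 1.48% of 24808 targets were at least 2-fold lower. That SELE value was only 0.63 above the lowest signal well above background, and the difference was -0.42 with the model-based background correction. The dimmer SELE probe went the other way, higher in remission by 0.38.

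Some related genes did pass the test between relapse and earlier aspirates, where 33.7% of all targets did, and SELP, LTB and the fibroblast genes were named after their values were seen. SELP, the other endothelial selectin, rose by 2.69 (limma adjusted p = 0.00198) as the only one called of 11 endothelial genes tested. SELP is also stored in platelets, and which cells gave its signal was not tested. CCL19, which shares the receptor CCR7 with CCL21, fell by 1.36 (limma adjusted p = 0.0104), alone among 7 lymphoid stroma genes tested. All 5 related ligands and receptors were lower in relapse. Of these 3 were called, namely CD44, a hyaluronan receptor that can bind E-selectin (-1.63), CXCR3 (-1.74) and CCL19. Among 4 inducers tested LTB, a subunit of lymphotoxin, fell by 1.26 (limma adjusted p = 0.00532). Fibroblast and matrix genes had 1 called higher (PDGFRB) and 4 called lower (DCN, THY1, VIM and BMP4) of 11. T and NK cell genes had 5 of 7 called lower. B cell genes had 2 called higher and 2 lower of 5, keratinocyte genes 4 lower of 6, and skeletal muscle genes 2 higher and 2 lower of 5. The part of these cells in the SELP, CCL19 and LTB values was not tested.

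**Figure D5:**
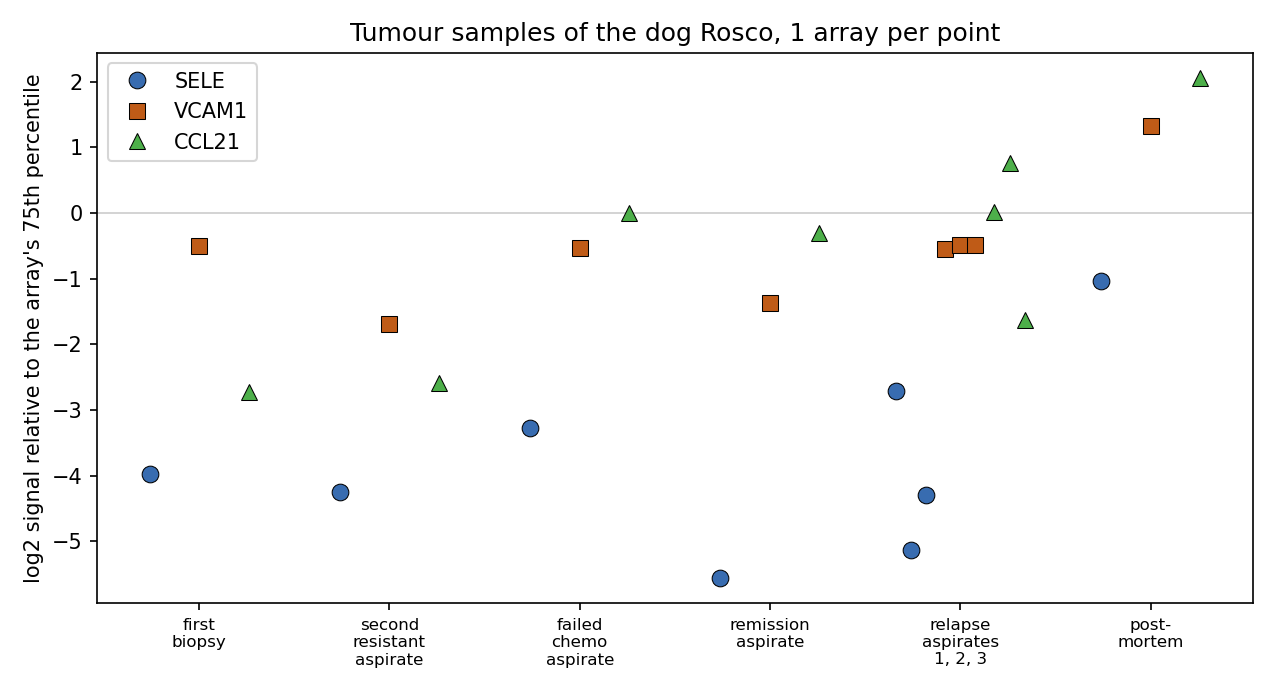
Log2 signal relative to the array's 75th percentile in the 8 tumour samples of Rosco, 1 array per point, by labelled stage; stages are categories and not a time axis, and the levels of different genes are not compared. VCAM1 is nearly the same in the 3 relapse aspirates, and all 3 genes are highest in the post-mortem sample.

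The post-mortem tumour of Rosco had the highest level of each gene among the 8 tumour samples of that dog. The share of all targets highest there is not given here. It exceeded the relapse mean by 3.01 for SELE (8.04-fold), 1.83 for VCAM1 (3.56-fold) and 2.34 for CCL21 (5.06-fold). Each gene was above all 3 relapse arrays, as were 33.3% of 23443 targets, and 6.31% of targets were at least 2-fold higher. It was among the 3 highest of all 15 arrays for each gene, as for 20.8% of targets. The dimmer SELE probe differed by 0.95. With 1 array there is no test, and tissue taken after death, an unstated sampling method and stage cannot be told apart.

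Other vessel and stroma genes were higher in the post-mortem sample too, and VWF, CD34 and NOS3 were named after their values were seen. Of 10 endothelial genes 5 were at least 2-fold above the relapse mean, with KDR at 3.34, EDNRB at 1.74 and VWF at 1.07 beside the 2 adhesion molecules. Of 6 lymphoid stroma genes 5 were, the members VCAM1 and CCL21 being counted among them, with CCL19 at 3.14 and CLU at 1.59. Of 10 fibroblast and matrix genes 7 were, with DCN at 5.08 and COL1A1, a chain of type I collagen, at 4.10. The summed linear endothelial level was 62.9, above the range of every other class. Most of that sum came from a single gene, VWF, at a log2 level of 5.41. By mean log2 level of the endothelial list the post-mortem sample was at 0.19, below the MalcolmX biopsy (0.35) and near the MalcolmX skin (0.18). CD34 and NOS3, the endothelial nitric oxide synthase gene, differed by 0.59 and -0.21. In the other direction, 3 of 7 T and NK cell genes and 2 of 5 neutrophil genes were at least 2-fold lower in the post-mortem sample. The share of all targets at least 2-fold lower is not given here. The list medians were -0.41 and -0.14, against -0.01 over all targets. The part of these cells in the member values was not tested.

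Across the 15 arrays the 3 genes did not form a single pattern. SELE and VCAM1 had r of 0.62 (rho 0.48), and r of 0.39 without the 2 arrays farthest in SELE. SELE and CCL21 had r of 0.25, and VCAM1 and CCL21 had r of 0.33, or 0.04 without the 2 farthest arrays. The arrays share dogs, slides and scan days, so these are descriptions with no test.

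Of 1112 named genes, those most like SELE by Pearson's r over 15 arrays were GJC1, a gap junction gene (0.90), HSD11B1, which activates cortisol (0.88), ANGPT2 (0.85), COL1A1 (0.82) and EDNRB (0.80). Without the 2 farthest arrays these values lay between 0.71 and 0.89. GJC1 was not well above background on 7 of the 15 arrays, so its r rests in part on values near background. For VCAM1 they were SNAP91 (0.89), the adhesion gene CDH2 (0.83), IL18BP, which neutralises interleukin-18 (0.82), CRYGS (0.73) and CLU (0.73). The CDH2 value had a rho of 0.52. Without the 2 farthest arrays r was 0.83 for SNAP91, 0.61 for CDH2, 0.66 for IL18BP, 0.87 for CRYGS and 0.47 for CLU. For CCL21 the closest were CLIC2, CCL17, PPIL4, DUOX1 and COL2A1, with r between 0.66 and 0.70, or 0.55 to 0.70 without the 2 farthest arrays. COL2A1 was not well above background on 4 arrays.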

How the data were processed

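Per the labels' protocols, RNA of good integrity was labelled with a low-input Cy3 kit. Agilent Feature Extraction 11.0.1.1, per the submitters' processing notes, gave the deposited intensity of each spot, less background and spatial trend (per the file headers) and with no scaling between arrays. The deposited series table holds intensity as median signal minus local background, and 678300 of 678300 cells equalled that within 0.01. Flags mark spots, per the file headers, as above background, saturated or outlying.

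Processed signals were put on the log2 scale minus the array's 75th percentile. Spots marked as outlying (2 to 50 per array) were left out, and 0 were saturated. RefSeq identifiers named 2186 of 43603 probes, and for genes with several probes the one with the highest mean was used, giving 36604 targets. Targets were tested if all arrays of either group had them well above background. limma 3.58.1 (R 4.3.3) gave two-sided tests at a threshold of 0.05, adjusted by Benjamini-Hochberg across the targets tested, and was checked on simulated data. Single values had an exact permutation test. The background model used as an alternative was normexp on median signals with an offset of 50. Biopsies of a group came from different dogs, per the labels, whereas the relapse aspirates and 6 of 7 aspirates came from Rosco, so p-values measure only the spread between these samples, and precision is limited by how many arrays there are.

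The genes and the 15 gene lists were chosen with earlier results of these data known. Genes named were the 3 members, up to 4 per list with the largest difference between biopsies and aspirates, called genes of that comparison with groups that do not overlap (0), and for each member the 5 genes with the highest Pearson's r. Other names are said to be chosen afterwards, apart from CA6 and MS4A1, which describe the gland-rich arrays. List results not given in the report were 0 called between biopsies and aspirates for keratinocyte, fat cell, skeletal muscle, B cell, T and NK cell, neutrophil, erythroid and platelet, exocrine gland and fibroblast lists, with medians of -0.50, -0.22, -0.76, -0.39, -0.38, -0.38, -0.52, 0.27 and 0.31. The lymphatic vessel list had only CCL21 tested there. The alternatives were other scalings, background and probe rules, slide, scan day and dog as blocks, and leaving out arrays. Genome positions and probe sequences were not used here. Replicate numbers do not pair samples. Dogs do, and only MalcolmX and Rosco gave samples of more than 1 kind.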

Additional observations from a re-analysis of the deposited data

Results flagged for a closer look

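In 40 groups of 4 to 10 arrays tested for a lone high or low value, 11 were marked, when chance marks about 1 in 20. The groups share arrays, so the same array and list can be marked more than once, and the 11 are not independent. None of the 11 concerned SELE, VCAM1 or CCL21 themselves. The summed linear level of the endothelial list was high in the MalcolmX biopsy, 47.1 against 30.4 or less in the other tumour biopsies, and also among the 4 resistant biopsies. It was low in the third relapse aspirate, 26.7 against 36.0 or more in the other 5 Rosco aspirates. Such a sum weighs bright genes most, and VWF was the brightest of the endothelial list on every array (log2 level 3.80 to 5.41). The gland list stood high in the first Rosco biopsy (416) and in the second resistant aspirate (543), where the next tumour arrays were at 2.35 and 2.47. The B cell list stood low on the same arrays, at 1.12 and 0.79. The T and NK cell list was high in the Thai biopsy at 14.4, against 2.48 or less in the other tumour biopsies.

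The post-mortem sample, which entered no replicated comparison, was at -1.03 for SELE, 1.32 for VCAM1 and 2.06 for CCL21. It was among the 3 highest arrays for each gene, as it was for 20.8% of targets. CCL21 differed by 5.81 on the log2 scale between the biopsy effect of MalcolmX and that of Rosco, in opposite directions in these dogs, and this limma test of the difference did not pass adjustment (adjusted p = 0.884). The Rosco effect of -2.10 sets the gland-rich biopsy against aspirates of which 5 of 6 were not gland-rich. Against the gland-rich aspirate alone CCL21 differed by -0.14 in Rosco, or 0.20 with quantile scaling.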

How the results depend on the processing

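With 12 arrays from 5 dogs, biopsy and aspirate differences of a few fold could not be resolved, and dim SELE values near background depend on the background model. No member passed the threshold in any comparison under any alternative that gave a test. Settings within a scan day, and without both gland-rich arrays, were chosen after seeing the data. For biopsies against aspirates the count of called targets was 8 within scan day 2 (6 higher, 2 lower) and 0 under all other alternatives. CCL21, at -0.03, changed sign with quantile scaling (0.027), slide as a block (0.76), within slide 2 (3.71), scan day as a block (0.91), within scan day 1 (2.87), Rosco aspirates averaged (1.07), skin added (0.29, or 0.089 as a plain difference), without both gland-rich arrays (0.71) and with dog as a fixed replicate block (0.044). SELE turned to -0.40 within slide 4. VCAM1 kept its direction under all 28 alternatives, from 0.20 to 2.07, and skin added gave 0.27. For biopsies against skin 231 calls became 63 with normexp, 74 with the series table, 32 with slide as a block, 40 within slide 1, 103 within scan day 1, 5617 without the first Rosco biopsy and 0 with dog as a fixed replicate block (2 dogs), while dog as a random replicate block gave 346. SELE then turned to 2.95 within slide 2 and 0.053 with the fixed replicate block, and VCAM1 moved to 3.82 within slide 2. Slide 2 set only the MalcolmX biopsy against the Rosco skin, single arrays of different dogs. For relapse against earlier aspirates 8551 calls became 2497 within slide 3. SELE turned to -0.16 with normexp, VCAM1 to -0.023 and CCL21 to 0.022 within slide 4. In the gland-rich pair SELE turned to -0.69 with normexp and CCL21 to 0.20 with quantile scaling. The causes were not tested, beyond the fewer arrays within slides and days. No dog-paired fit was possible for relapse against earlier aspirates, which come from 1 dog.

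Leaving out each array in turn, biopsies against aspirates gave 0 to 0 calls, SELE 0.35 to 1.54, VCAM1 0.58 to 1.23 and CCL21 -0.83 to 0.34, and the plain differences ran from 0.46 to 1.74, 0.65 to 1.34 and -0.59 to 0.26. Against skin the calls ran from 66 (without Jake) to 5617 (without the first Rosco biopsy), with 82 without Dog Y, 103 without Thai, 123 without MalcolmX, and 480 and 476 without the MalcolmX and Rosco skin. There SELE ran from -1.64 to -0.04, VCAM1 from 1.55 to 2.25 and CCL21 from -1.43 to 0.0012. Relapse calls ran from 3769 (without remission) to 9758 (without the third relapse sample), with 5534 without failed chemotherapy and 5640 without the first relapse sample, and SELE from -0.76 to 1.52, VCAM1 from 0.02 to 0.86 and CCL21 from -0.65 to 0.55. A lone array on a side was assumed to vary like the other group.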
